A study of Mus musculus with 12 samples.

Results

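The circadian clock genes of mouse liver were followed library by library across 4 groups: 10 core clock members (Arntl, Clock, Npas2, Per1, Per2, Per3, Cry1, Ciart, Nr1d1 and Dbp) out of 50559 genes listed by symbol in the count tables. The members were taken by gene symbol. All mice were C57BL/6N and were kept on their diet for 12 weeks. The NCD group ate normal chow, the HFD group ate a high-fat diet with 60% of its energy from fat, and the HFD+C1 and HFD+C2 groups ate the same high-fat diet and were injected into the abdominal cavity with compound C1 or C2 at 5 mg/kg/day for the same 12 weeks. By the title of the series both are CYP4A inhibitors, aimed at a family of fatty acid hydroxylases, and the labels give no structure for either code name. Each group had 3 libraries, labelled as biological replicates, 12 in all. The labels name no vehicle injection for the NCD and HFD groups, so in the compound comparisons compound and injection cannot be told apart. They give neither age nor sex, nor the hour at which any liver was taken. Clock genes differ by hour as well as by condition, so in each comparison between groups the treatment and the time of sampling cannot be told apart.

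The clock is a loop of transcription that turns over about once a day in nearly every cell, and liver is one of the tissues in which it is strongest. Arntl (also called Bmal1) pairs with Clock, or with its close relative Npas2, and the pair binds E-box sequences to switch on the Per and Cry genes, Nr1d1, Dbp and Ciart. Per and Cry proteins return to block the pair, the Nr1d1 protein (REV-ERB alpha) represses Arntl, Npas2 and Cry1 through ROR elements, and the Dbp protein activates genes through D-boxes. In liver, transcripts switched on through E-boxes, such as Dbp and Nr1d1, peak in the light phase at an hour when Arntl and Npas2 are low.

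The promoter sequences of 4 members are shown because their windows hold elements that were searched for. For 9 of the 10 members, RefSeq promoter windows were at hand, 13 windows in all (Per2 is not among them), and the 250 bases before each transcript start were searched on both strands for 3 elements. These were the E-box CACGTG, which reads the same on both strands, the D-box TTATGTAA or TTACGTAA, and the ROR element TAGGTCA or TGGGTCA. No searched form of one element is contained in a form of another. The E-box was present in 6.02% of all 32851 windows of this length, the D-box in 0.931% and the ROR element in 5.38%. Sequences are 5′ to 3′ on the gene's own strand, RefSeq build GRCm38.p6, and capitals mark the element. Ciart (chr3:95882229-95882478, minus strand) held 3 E-boxes, Cry1 (chr10:85185055-85185304, minus strand) held 1, Per1 (chr11:69098699-69098948, plus strand) held 1 in 1 of its 2 windows, and Per3 (chr4:151044666-151044915, minus strand) held 2 D-boxes.
Ciart: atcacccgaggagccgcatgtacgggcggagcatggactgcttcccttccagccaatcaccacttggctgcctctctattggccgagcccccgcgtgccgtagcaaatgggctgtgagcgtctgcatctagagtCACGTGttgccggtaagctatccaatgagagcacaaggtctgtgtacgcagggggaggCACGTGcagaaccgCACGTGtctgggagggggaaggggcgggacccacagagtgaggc
Cry1: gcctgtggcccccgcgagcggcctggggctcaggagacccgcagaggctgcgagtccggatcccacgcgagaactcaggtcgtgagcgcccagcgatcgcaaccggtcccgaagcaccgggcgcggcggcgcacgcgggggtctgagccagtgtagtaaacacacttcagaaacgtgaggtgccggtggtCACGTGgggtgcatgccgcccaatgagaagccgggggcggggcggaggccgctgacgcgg
Per1: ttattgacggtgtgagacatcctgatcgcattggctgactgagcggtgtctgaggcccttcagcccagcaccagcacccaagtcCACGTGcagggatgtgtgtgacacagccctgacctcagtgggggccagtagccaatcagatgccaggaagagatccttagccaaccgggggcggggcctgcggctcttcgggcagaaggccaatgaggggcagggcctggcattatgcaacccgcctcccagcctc
Per3: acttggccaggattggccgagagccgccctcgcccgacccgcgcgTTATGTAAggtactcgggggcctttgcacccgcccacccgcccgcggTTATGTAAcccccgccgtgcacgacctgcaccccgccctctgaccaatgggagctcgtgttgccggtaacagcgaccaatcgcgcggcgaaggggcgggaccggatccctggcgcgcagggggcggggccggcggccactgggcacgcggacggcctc
The E-boxes of Ciart began 116, 58 and 44 bases before the start, that of Cry1 60 bases and that of Per1 166 bases before it, and the D-boxes of Per3 began 205 and 158 bases before it. No ROR element of the searched forms was in the windows of the 9 members, Arntl, Npas2 and Cry1 included. Bases after the start, bases farther before it and other forms of the element were not searched. A match of letters is a description and not a measured binding site.

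The libraries held between 4281210 (NCD replicate 2) and 32124248 (HFD replicate 1) reads in genes, and levels are given as CPM, that is, reads of a gene per 1000000 reads in genes of that library. In a library, 3 reads, taken as the smallest level worth reading, stood for between 0.0934 CPM (HFD replicate 1) and 0.701 CPM (NCD replicate 2). These floors cover counting error only. A pair of libraries stood apart: reads not assigned to a gene made up 58.2% of NCD replicate 1 and 47.1% of HFD+C2 replicate 1, against 27.3% to 40.7% of the other libraries. This share and the depth also moved with the diet. The unassigned share was 35.7% to 58.2% over the NCD libraries and 31.9% to 32.9% over HFD, and reads in genes were 4281210 to 23147418 over NCD and 25198905 to 32124248 over HFD, with no overlap in either. Their part in the diet results was not tested. The summed level of 5 hepatocyte markers (Alb, Apoa1, Ttr, Tat and Cps1), none of them at 0, spanned 32500 to 77000 CPM over the NCD libraries, 83800 to 103000 CPM over HFD, 97400 to 106000 CPM over HFD+C1 and 66900 to 136000 CPM over HFD+C2, so the liver label held in every library. The sum of 5 adipocyte markers (Adipoq, Lep, Retn, Plin1 and Cfd) spanned 0.934 to 1.52 CPM over NCD and 20.1 to 23.0 CPM over HFD, and in each of these groups 1 of the 5 was at 0 throughout. The sum of 5 B and plasma cell markers, 1 of them at 0 throughout, went the other way, with 3.97 to 7.0 CPM over NCD and 1.68 to 3.38 CPM over HFD. Hepatocyte and adipocyte sums were thus lower in NCD than in HFD, and the B and plasma cell sum was higher. The sum of 5 Kupffer cell and macrophage markers, none at 0, was 81.2 to 112 CPM over HFD and 138 to 171 CPM over HFD+C1, without overlap, and 110 to 195 CPM over HFD+C2. The part of these markers in the results below was not tested, and in whole tissue fewer cells of a type and less RNA per cell cannot be told apart.

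Scaling by total reads and scaling by TMM, which sets the bulk of genes level between libraries, did not give the same zero in the diet comparison: the median log2 difference of all genes tested was -0.02 with TMM and -0.24 with total reads, a shift of -0.22. Differences are therefore given on the TMM scale, from edgeR's quasi-likelihood test, as log2 values with their standard error (SE). A call is a Benjamini-Hochberg adjusted p under 0.05 over all genes tested. With TMM, 359 genes were called higher and 477 lower in HFD than in NCD, and with total reads 241 and 864. In the other 3 comparisons the shift was at most 0.07 in size.

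On the high-fat diet, 1 of the 9 members tested rose, Dbp, the output transcription factor of the clock. Over all 13864 genes tested, 6.03% were called, and 2.59% were called higher. The other 8 members tested did not pass, although 4 of the 9, Dbp, Nr1d1, Per1 and Per3, had HFD and NCD values that did not overlap on the TMM scale, against 37.1% of all genes tested. An unadjusted edgeR p under 0.05 was reached by 3 of the 9, against 28.9% of all genes. The median log2 difference was 0.17 over the 9 members and -0.02 over all genes tested.

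**Figure D1:**
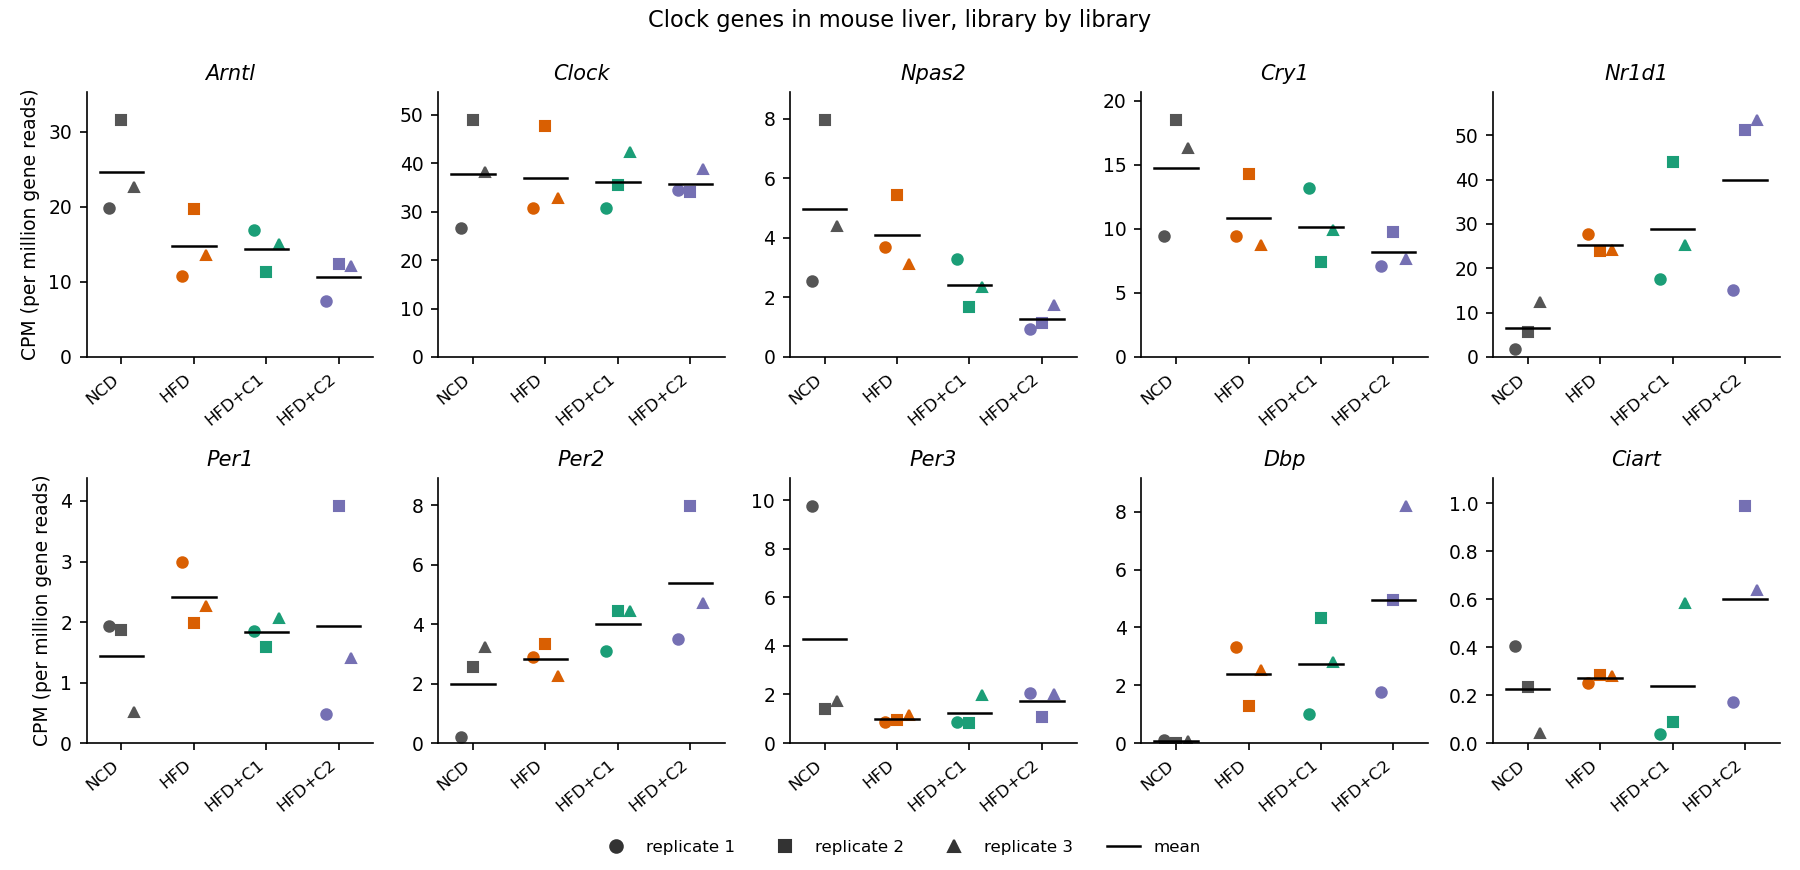
Level of each clock member in CPM (linear axes from 0) in each of the 12 libraries, with the symbol giving the replicate number and the bar the mean of 3 libraries. Dbp lies at or below 0.101 CPM in the NCD libraries and between 1.02 and 8.18 CPM in the other 9.

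Arntl, the indispensable partner of the positive limb, is at chromosome 7, 113207465 to 113314126 (GRCm38, plus strand). It stood at 19.9, 31.5 and 22.6 CPM in NCD replicates 1 to 3, and at 10.8, 19.8 and 13.6 CPM in HFD. The HFD+C1 libraries gave 16.9, 11.3 and 15.1 CPM, and those of HFD+C2 gave 7.48, 12.3 and 12.2 CPM. The 3 highest libraries were the 3 NCD libraries, and the lowest was HFD+C2 replicate 1. The NCD and HFD ranges were separated by a narrow gap in CPM, between 19.9 and 19.8, and overlapped on the TMM scale. The log2 difference between HFD and NCD was -0.53 (SE 0.27, 95% interval -1.15 to 0.08), which did not pass (edgeR, Benjamini-Hochberg adjusted p = 0.223, n = 3 per group) and was -0.31 without NCD replicate 2.

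Clock, the partner of Arntl and a histone acetyltransferase, gave 26.6, 48.8 and 38.1 CPM with chow and 30.8, 47.6 and 32.7 CPM with the high-fat diet alone. The HFD+C1 libraries gave 30.8, 35.6 and 42.2 CPM, and those of HFD+C2 gave 34.5, 34.1 and 38.8 CPM. All 4 groups overlapped. Between HFD and NCD the difference was 0.17 (SE 0.27, interval -0.45 to 0.79) on the log2 scale and became -0.03 with total-read scaling. The HFD+C2 to HFD difference was 0.00 with an interval of -0.40 to 0.40.

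Npas2, which can stand in for Clock, stood at 2.54, 7.94 and 4.41 CPM in NCD and at 3.70, 5.44 and 3.14 CPM in HFD, and these ranges overlapped. The HFD+C1 libraries gave 3.28, 1.68 and 2.33 CPM, with 1 of them inside the HFD range. The HFD+C2 libraries gave 0.951, 1.13 and 1.75 CPM, all below every HFD library. The diet difference was -0.02 (SE 0.43, interval -0.99 to 0.95) on the log2 scale, and its sign turned in some other settings.

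In the negative limb, Cry1, the repressor that holds the pair on DNA in an inactive state, gave 9.43, 18.4 and 16.3 CPM with chow and 9.43, 14.3 and 8.73 CPM with the high-fat diet alone. With C1 it gave 13.1, 7.38 and 9.92 CPM, and with C2 it gave 7.09, 9.72 and 7.67 CPM. NCD replicates 2 and 3 were the highest, and NCD replicate 1 lay inside the range of every other group. The difference between HFD and NCD was -0.24 (SE 0.31, interval -0.95 to 0.46) and did not pass (edgeR, Benjamini-Hochberg adjusted p = 0.626). It was -0.52 without NCD replicate 1 and -0.059 without NCD replicate 2.

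Per1, a partner of the Cry proteins that also answers quickly to hormones, was low throughout. Chow livers gave 1.93, 1.87 and 0.518 CPM, and HFD livers 2.99, 1.99 and 2.26 CPM, so that the lowest HFD library lay just above the highest NCD library. With C1 the values were 1.85, 1.59 and 2.07 CPM, and with C2 they were 0.475, 3.91 and 1.41 CPM, the widest spread of the 4 groups. By diet the difference was 1.10 (SE 0.53, interval -0.11 to 2.31; edgeR, Benjamini-Hochberg adjusted p = 0.206). Without NCD replicate 1 it was 1.68 and passed (adjusted p = 0.0382), in a fit that called 13.7% of all genes. Without NCD replicate 3 it was 0.62 (adjusted p = 0.346).

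Per2, another period gene, gave 0.203, 2.57 and 3.24 CPM with chow, and 2.90, 3.34 and 2.26 CPM with the high-fat diet alone. NCD replicate 1 alone was low, and the other 2 NCD libraries lay within the HFD range. With C1 the values were 3.10, 4.46 and 4.45 CPM, and with C2 they were 3.50, 7.96 and 4.73 CPM, so all HFD+C2 libraries were above all HFD libraries. The HFD to NCD difference was 0.65 (SE 0.69, interval -0.92 to 2.22), and it was 0.05 without NCD replicate 1 and 1.57 without NCD replicate 3.

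Per3, the period gene with 2 D-boxes in the window printed above, gave 9.74, 1.40 and 1.73 CPM with chow and 0.872, 0.960 and 1.15 CPM with the high-fat diet alone. All NCD libraries were above all HFD libraries, and NCD replicate 1 was far above the other 2. With C1 it gave 0.868, 0.839 and 1.96 CPM, and with C2 it gave 2.08, 1.06 and 2.00 CPM. By diet the difference was -1.87 (SE 0.67, interval -3.40 to -0.34), which did not pass (edgeR, Benjamini-Hochberg adjusted p = 0.117). Without NCD replicate 1 the difference was -0.58.

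Ciart (CHRONO), a further repressor of the pair and the member with 3 E-boxes in its window, was near the floor. It had 4, 1 and 1 reads in the NCD libraries, and the HFD libraries gave 0.249, 0.285 and 0.278 CPM. With C1 the values were 0.0377, 0.0884 and 0.583 CPM, and with C2 they were 0.173, 0.987 and 0.639 CPM. All 4 groups overlapped. Its mean count was under 10 in the comparisons of HFD with NCD and of HFD+C1 with HFD, where it was not tested. With reads pooled by group, the ratio of HFD to NCD was 1.67 (95% exact binomial interval 0.662 to 5.02, counting error only), which includes 1.

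Nr1d1, the nuclear receptor that represses Arntl, is at chromosome 11, 98767932 to 98775333 (GRCm38, minus strand). It gave 1.83, 5.61 and 12.4 CPM with chow and 27.8, 24.0 and 24.2 CPM with the high-fat diet alone. With C1 it gave 17.6, 43.9 and 25.3 CPM, and with C2 it gave 15.1, 51.1 and 53.4 CPM. The 3 NCD libraries were the lowest of the 12 and differed widely among themselves, and HFD+C2 replicate 1 was the lowest of the 9 libraries of mice on the high-fat diet. The HFD to NCD difference was 2.04 (SE 0.55, interval 0.80 to 3.28), which fell just short of a call (edgeR, Benjamini-Hochberg adjusted p = 0.0605). It was 1.49 without NCD replicate 1 (adjusted p = 0.00185) and 3.16 without NCD replicate 3 (adjusted p = 0.0367), and both passed. These fits called 13.7% and 3.55% of all genes. In the 4 other fits with 1 library left out Nr1d1 did not pass (adjusted p of 0.0862 to 0.228). Those called 0.165% to 8.89% of all genes.

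Dbp, the D-box activator and the output gene among the members, is at chromosome 7, 45705088 to 45710203 (GRCm38, plus strand). It had 1, 0 and 2 reads in NCD replicates 1, 2 and 3, which is under the floor of 3 reads in each. The HFD libraries gave 3.33, 1.28 and 2.54 CPM, those of HFD+C1 gave 1.02, 4.33 and 2.81 CPM, and those of HFD+C2 gave 1.77, 4.93 and 8.18 CPM. Every library of mice on the high-fat diet was above every NCD library.

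With the reads of each group pooled, Dbp was 30.1 times higher in HFD than in NCD, with an exact binomial interval of 10.2 to 147 that covers counting error only. The fitted log2 difference was 5.02 (SE 0.75, interval 3.32 to 6.73; edgeR, Benjamini-Hochberg adjusted p = 0.0163), and its size depends on the small count added before the logarithm. Leaving out 1 library at a time moved the estimate between 4.69 and 5.35. Without HFD replicate 1 the call was lost (4.69, edgeR unadjusted p = 0.00104, adjusted p = 0.148). It was also lost without HFD replicate 3 (5.01, unadjusted p = 0.0008, adjusted p = 0.115). These 2 fits called 0.165% and 0.179% of all genes, against 6.03% with all libraries. The 4 other fits with 1 library left out kept the call of Dbp. The strand used in counting is not given in the sources used here, and 539 exon bases of Dbp (18.0%) overlap exons of Sphk2 on the opposite strand, as 263 (8.55%) of Nr1d1 overlap Thra and 33 (0.439%) of Arntl overlap Gm45355, so reads from these stretches may be lost or shared. Reads that fitted more than 1 gene made up 3.91% to 9.04% of a library, with the 2 highest shares in NCD replicate 1 (7.88%) and HFD+C2 replicate 1.

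**Figure D2:**
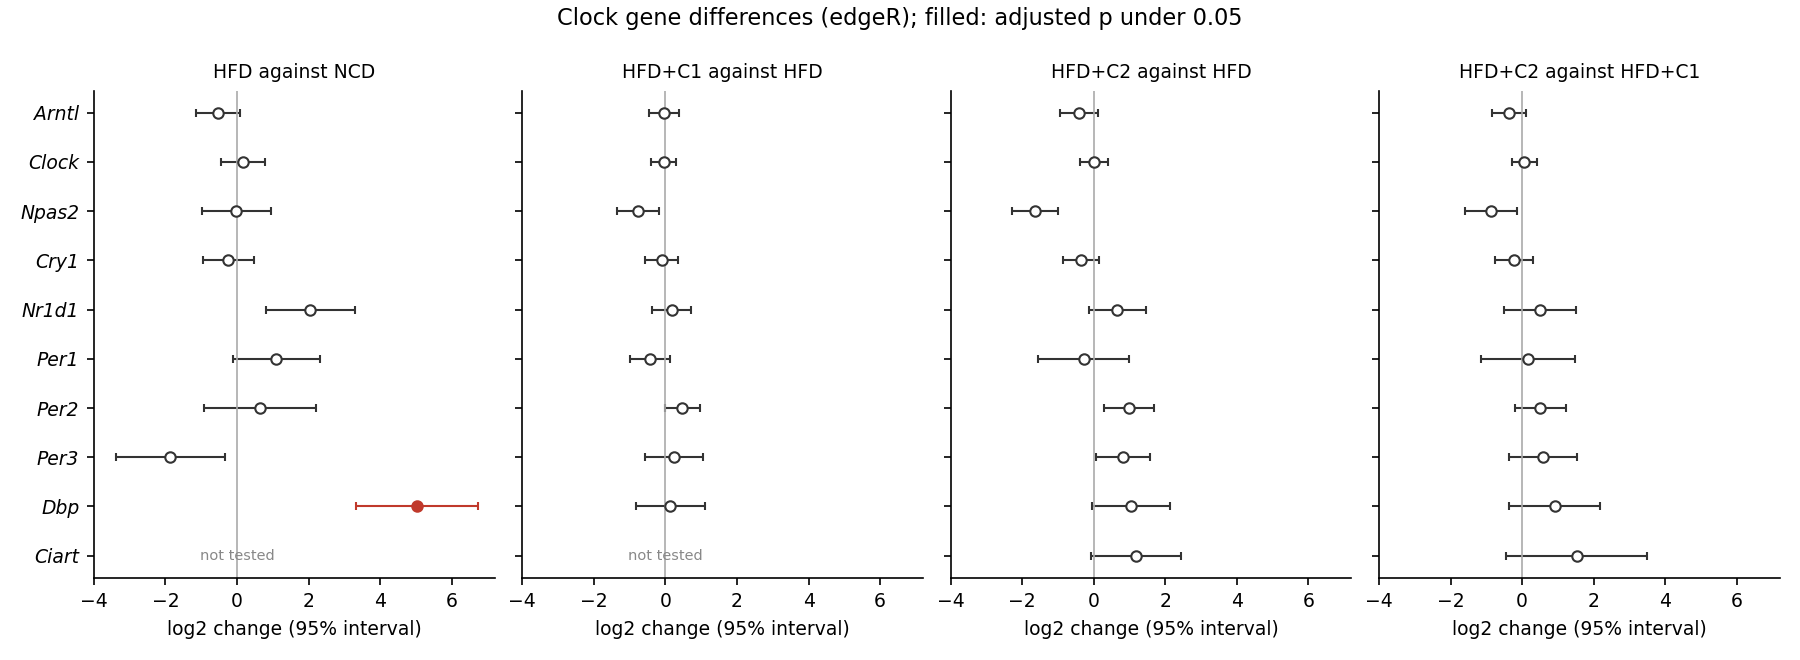
Log2 difference of each clock member (point) with its 95% interval (bar) in the 4 comparisons, from edgeR with TMM scaling. The filled point, Dbp in HFD against NCD at 5.02, is the 1 member called, and the Npas2 intervals in the comparisons among mice on the high-fat diet lie below 0.

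Per kilobase of exon, the level that may be set between genes, the order of the members changed between the diets. In NCD, Cry1 stood first at 4.41 ± 1.41 CPM per kilobase (SD, n = 3), followed by Arntl at 3.28 ± 0.809, Clock at 2.76 ± 0.810, Nr1d1 at 2.14 ± 1.73 and Npas2 at 1.04 ± 0.573. Neighbours in this order differed by less than the larger of their SDs. Ciart and Dbp were the lowest, with all but 1 of their NCD values under the floor of 3 reads, so their order is not read. In HFD, Nr1d1 stood first at 8.23 ± 0.697 CPM per kilobase, above Cry1 at 3.24 ± 0.901, Clock at 2.7 ± 0.669 and Arntl at 1.96 ± 0.609, whose spreads met. Dbp, at 0.796 ± 0.346 CPM per kilobase, then stood beside Npas2 at 0.854 ± 0.251. Nr1d1 was first in the compound groups as well, at 9.40 ± 4.38 in HFD+C1 and 13.0 ± 6.98 in HFD+C2. Ciart and Per3 were the lowest members in HFD and HFD+C1, at 0.103 to 0.127 CPM per kilobase. In HFD+C2 they stood at 0.265 ± 0.181 and 0.178 ± 0.0589, where Npas2, at 0.267 ± 0.0871, did not differ from them beyond the spread.

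The balance of both limbs within a library does not depend on library scaling. There were 10.9, 5.62 and 1.83 Arntl reads per Nr1d1 read in NCD replicates 1, 2 and 3. The HFD libraries had 0.39, 0.824 and 0.563, those of HFD+C1 had 0.957, 0.258 and 0.595, and those of HFD+C2 had 0.496, 0.242 and 0.228. Arntl reads outnumbered Nr1d1 reads in all 3 NCD libraries and in none of the other 9. Within groups, the ratio varied from 1.83 to 10.9 in NCD, and HFD+C1 replicate 2 and HFD+C2 replicates 2 and 3 had the lowest ratios.

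Across the 12 libraries, Dbp fell into separate clusters, NCD and the rest, so its relation to Arntl was computed within the 9 libraries of mice on the high-fat diet, a choice made after seeing the data. On log2(CPM + 0.1), Pearson's r of Dbp with Arntl was -0.35 (exact permutation p = 0.353, two-sided, adjusted p = 0.707 over 2 relations) and Spearman's rho was -0.47 (exact permutation p = 0.213, adjusted p = 0.425). For Nr1d1 with Arntl, r was 0.00 (exact permutation p = 0.997) and rho was -0.22 (exact permutation p = 0.581). Neither relation passed. Without HFD replicate 2 and HFD+C2 replicate 1, the 2 libraries farthest from the median of Arntl, r was -0.74 for Dbp (exact permutation p = 0.0651, n = 7) and -0.69 for Nr1d1 (exact permutation p = 0.0921, n = 7). HFD+C2 replicate 1 was the lowest of the 9 in Arntl, in Nr1d1 and in Npas2.

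**Figure D3:**
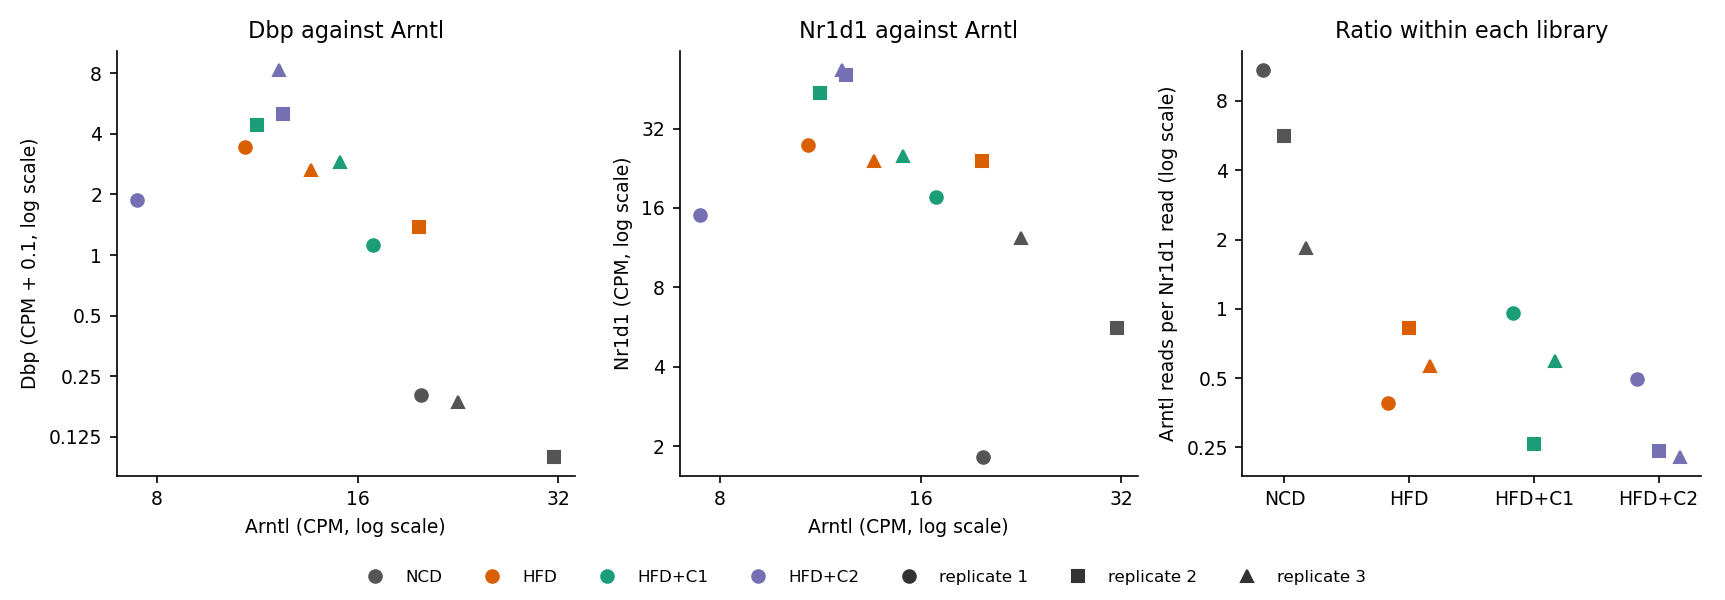
Dbp and Nr1d1 against Arntl in CPM (both axes logarithmic, 0.1 CPM added to Dbp), and Arntl reads per Nr1d1 read by group on a logarithmic axis, with 1 symbol per library. The NCD libraries sit at high Arntl and low Dbp, with ratios of 1.83 to 10.9, and the other 9 libraries have ratios of 0.228 to 0.957.

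The compounds were each compared with HFD, and these 2 comparisons share the same 3 HFD libraries. The summed Kupffer cell and macrophage markers given above were higher in every HFD+C1 library than in any HFD library, and their part in the C1 values was not tested. With C1, none of the 9 members tested was called, where 0.0524% of 13358 genes were. None of the 9 separated from HFD on the TMM scale either, against 12.4% of all genes, and 1 of the 9 had an unadjusted edgeR p under 0.05, against 7.75% of all genes. That member was Npas2, with a log2 difference of -0.76 (SE 0.27, interval -1.34 to -0.18; edgeR, Benjamini-Hochberg adjusted p = 0.466). The intervals of the other members were -0.46 to 0.37 for Arntl, -0.39 to 0.29 for Clock, -0.56 to 0.35 for Cry1, -0.99 to 0.13 for Per1, -0.02 to 0.96 for Per2, -0.56 to 1.05 for Per3, -0.37 to 0.71 for Nr1d1 and -0.82 to 1.10 for Dbp. The median difference was -0.05 over the 9 members and 0.01 over all genes. For Ciart, the pooled ratio of HFD+C1 to HFD was 0.765 (0.364 to 1.55).

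With C2, none of the 10 members tested was called, where 0.0222% of 13503 genes were. An unadjusted edgeR p under 0.05 was reached by 3 of the 10, against 6.89% of all genes, and 2 of the 10, Npas2 and Per2, did not overlap with HFD, against 13.6% of all genes. For Npas2 the log2 difference was -1.64 (SE 0.29, interval -2.29 to -0.997; edgeR, unadjusted p = 0.000248, Benjamini-Hochberg adjusted p = 0.419). It was called by DESeq2 (-1.65, adjusted p = 0.00132) and without a filter on low counts (-1.65, adjusted p = 2.9e-05), and in none of the other settings, with all libraries or with 1 left out. Per2 differed by 0.97 (SE 0.31, interval 0.28 to 1.67; adjusted p = 0.695), or by 0.56 without HFD+C2 replicate 2, and Per3 by 0.83 (SE 0.34, interval 0.07 to 1.58; adjusted p = 0.695).

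The differences of Nr1d1 and Dbp moved with the HFD+C2 library left out. Nr1d1 differed by 0.66 between HFD+C2 and HFD (SE 0.36, interval -0.14 to 1.47; edgeR, Benjamini-Hochberg adjusted p = 0.696), by 1.03 without HFD+C2 replicate 1, which passed (adjusted p = 0.0086), and by 0.41 without HFD+C2 replicate 2 (adjusted p = 0.749). Dbp differed by 1.04 (SE 0.49, interval -0.05 to 2.14; adjusted p = 0.695), by 1.41 without HFD+C2 replicate 1 (adjusted p = 0.158) and by 0.57 without HFD+C2 replicate 3 (adjusted p = 0.657). The intervals of the other members were -0.95 to 0.11 for Arntl, -0.85 to 0.14 for Cry1, -1.54 to 0.99 for Per1 and -0.07 to 2.45 for Ciart. Per1 differed by -0.28 with all libraries and by -1.36 without HFD+C2 replicate 2. The median difference was 0.33 over the 10 members and 0.02 over all genes.

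C2 was compared with C1 at the same dose and over the same 12 weeks, 1 pair of compounds. None of the 10 members was called, and 0% of 13229 genes were called in edgeR. At an unadjusted p under 0.05 there were 608 genes (4.6%), and DESeq2 called 3 genes. Of the members, 1 had an unadjusted p under 0.05, Npas2, with a log2 difference of -0.87 (SE 0.33, interval -1.61 to -0.13; edgeR, Benjamini-Hochberg adjusted p = 0.841). The 2 groups of Npas2 values overlapped in CPM and did not on the TMM scale. This was 1 of the 10 members, against 12% of all genes tested. The intervals were -0.29 to 0.41 for Clock, -0.84 to 0.11 for Arntl, -0.76 to 0.29 for Cry1, -0.20 to 1.22 for Per2, -0.38 to 1.54 for Per3, -0.51 to 1.51 for Nr1d1, -0.36 to 2.18 for Dbp, -1.16 to 1.48 for Per1 and -0.44 to 3.50 for Ciart. These widths do not show that the compounds act alike on the members.

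**Figure D4:**
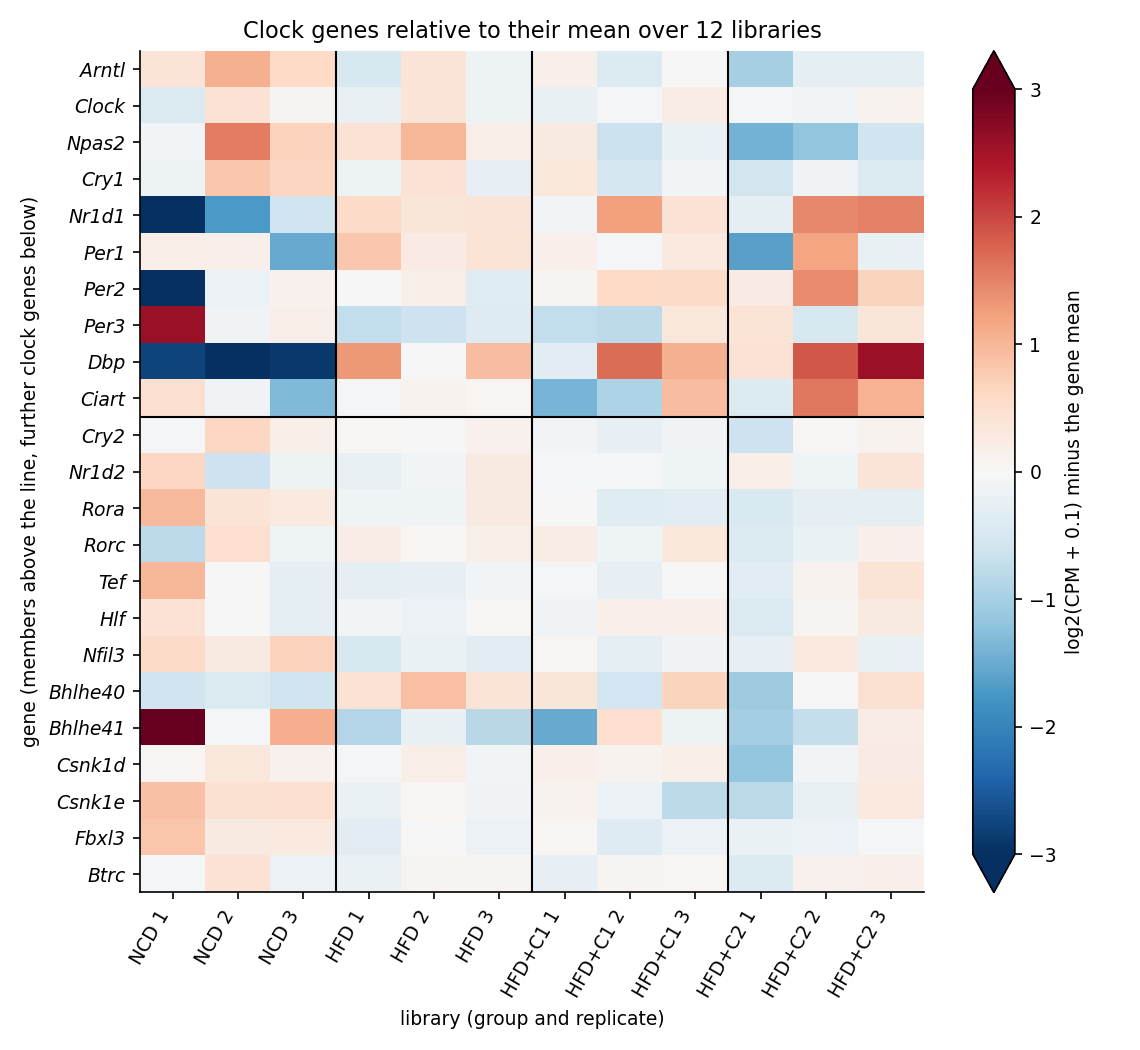
Log2(CPM + 0.1) of the 10 clock members and the 13 further clock genes in each of the 12 libraries, minus the mean of each gene over the libraries, with colour from blue (lower) to red (higher) over -3 to 3. Dbp and Nr1d1 are lowest in the 3 NCD libraries, and NCD replicate 1 stands apart in Per2, Per3 and Bhlhe41.

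The 13 further genes of the loop (the second Cry and Rev-erb genes, the ROR activators, the D-box proteins Tef, Hlf and Nfil3, the Bhlhe repressors, and the kinases and ligase subunits that mark Per and Cry for decay) were tested in the same fit. On the high-fat diet 1 of the 13 was called, in the higher direction, where 6.03% of all genes were called, and the median log2 difference was 0.01. Without NCD replicate 1 the count was 2, where 13.7% of all genes were called, and without NCD replicate 2 it was 3, where 8.89% were. It was also 3 in DESeq2, where 16.6% of all genes were called, and in the fit of 12 libraries, where 17.4% were. The gene was Bhlhe40 (DEC1), a repressor at E-boxes, which stood at 21.4, 24.3 and 21.5 CPM in NCD and at 44.4, 61.2 and 43.2 CPM in HFD. The groups did not overlap, and the difference was 1.36 (SE 0.19, edgeR, Benjamini-Hochberg adjusted p = 0.0132). The call was lost without HFD replicate 1 (adjusted p = 0.101) or HFD replicate 3 (adjusted p = 0.067). These 2 fits called 0.165% and 0.179% of all genes. Nfil3, which competes with Dbp for D-boxes, was at 56.5, 46.0 and 61.4 CPM in NCD and at 27.0, 33.0 and 29.8 CPM in HFD, without overlap, and its difference of -0.67 (SE 0.18) did not pass (adjusted p = 0.0622). Nfil3 was called in DESeq2 (adjusted p = 0.00583), with total-read scaling (adjusted p = 0.0352), in the fit of 12 libraries (adjusted p = 0.0318), and without NCD replicate 1 (adjusted p = 0.0119) or NCD replicate 2 (adjusted p = 0.0487). Bhlhe41 differed by -2.95 (edgeR, adjusted p = 0.0681), or by -1.51 without NCD replicate 1. It was called lower in DESeq2 (adjusted p = 0.00674), without a filter and in the fit of 12 libraries (adjusted p = 0.0223). Without NCD replicate 2 it was called too (-3.36, adjusted p = 0.0408). Nr1d2, the sister of Nr1d1, differed by 0.19 (SE 0.28, adjusted p = 0.684), and Tef, the sister of Dbp, by -0.33 (SE 0.28, adjusted p = 0.466). None of the 13 was called with C1, with C2 or between them, in any setting tried.

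Of 16 genes known as outputs of the liver clock, 5 were called on the high-fat diet, 1 higher and 4 lower, and the median difference was -0.18. Over all genes tested 6.03% were called, 2.59% higher and 3.44% lower. Without NCD replicate 1, 9 of the 16 were called, in a fit that called 13.7% of all genes. Rgs16, a regulator of G protein signalling in liver, had 3, 0 and 32 reads in NCD and stood at 23.7, 14.1 and 21.8 CPM in HFD. Its difference was 4.79 (SE 0.58; edgeR, Benjamini-Hochberg adjusted p = 0.00718), a size that is unstable over so few reads: without NCD replicate 3 it was 6.82. Cyp7a1, the rate-limiting enzyme of bile acid synthesis, fell from 62.1, 40.2 and 32.8 CPM in NCD to 7.10, 4.23 and 6.47 CPM in HFD, a difference of -2.68 (SE 0.29; adjusted p = 0.00478). On the TMM scale, the HFD and NCD values of 8 of the 16 outputs did not overlap, against 37.1% of all genes tested.

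The other 3 called outputs were lower in HFD. Upp2, a uridine phosphorylase, differed by -1.58 (SE 0.16; edgeR, Benjamini-Hochberg adjusted p = 0.00431). Elovl3, a fatty acid elongase, differed by -1.62 (SE 0.24; adjusted p = 0.0163). Por, the reductase that feeds electrons to cytochromes P450, differed by -1.16 (SE 0.20; adjusted p = 0.0254). All 5 calls were lost without HFD replicate 3, where 0.179% of all genes were called. Those of all but Cyp7a1 were also lost without HFD replicate 1 (0.165% of all genes called). The call of Por was also lost without HFD replicate 2 (0.94%). With all libraries the share was 6.03%.

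None of the 16 outputs was called with C1, with C2 or between them in the edgeR fit with TMM, all libraries and the filter on low counts, and some were called in other settings. Cyp7a1 gave 16.4, 10.5 and 17.3 CPM with C1 and 9.51, 29.2 and 13.8 CPM with C2, above all HFD libraries in both groups. Its differences from HFD were 1.27 (SE 0.22; edgeR, Benjamini-Hochberg adjusted p = 0.0925) with C1 and 1.60 (SE 0.39; adjusted p = 0.695) with C2. With C1 it was called with a replicate block (1.28, adjusted p = 0.00254), in DESeq2 (1.27, adjusted p = 3.94e-05), without a filter, and without HFD replicate 2 (1.06, adjusted p = 0.0213) or HFD+C1 replicate 2 (1.46, adjusted p = 0.0311). With C2 it was called in DESeq2 (1.59, adjusted p = 0.0211), without a filter, and without HFD+C2 replicate 1 (1.86, adjusted p = 0.0282), and it was 0.99 without HFD+C2 replicate 2 (adjusted p = 0.666).

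Rgs16 gave 5.55, 13.0 and 7.21 CPM with C1, below all HFD libraries, and 25.9, 7.27 and 53.2 CPM with C2, on both sides of them. Its differences from HFD were -1.24 (SE 0.28; edgeR, Benjamini-Hochberg adjusted p = 0.206) and 0.53 (SE 0.53; adjusted p = 0.794). With C1 it was called without a filter and without HFD replicate 2 (-1.46, adjusted p = 0.0168) or HFD+C1 replicate 2 (-1.70, adjusted p = 0.029). Upp2 differed from HFD by 1.25 with C2 (SE 0.32; adjusted p = 0.695) and was called in DESeq2 (adjusted p = 0.0477), without a filter, and without HFD+C2 replicate 1 (1.502, adjusted p = 0.0224). It was 0.72 without HFD+C2 replicate 2 (adjusted p = 0.666). Without HFD+C2 replicate 1, 3 of the 16 outputs were called with C2, Upp2, Cyp7a1 and Por, where 0.199% of all genes were. Between the compounds, Upp2 and Rgs16 were called without a filter only.

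**Figure D5:**
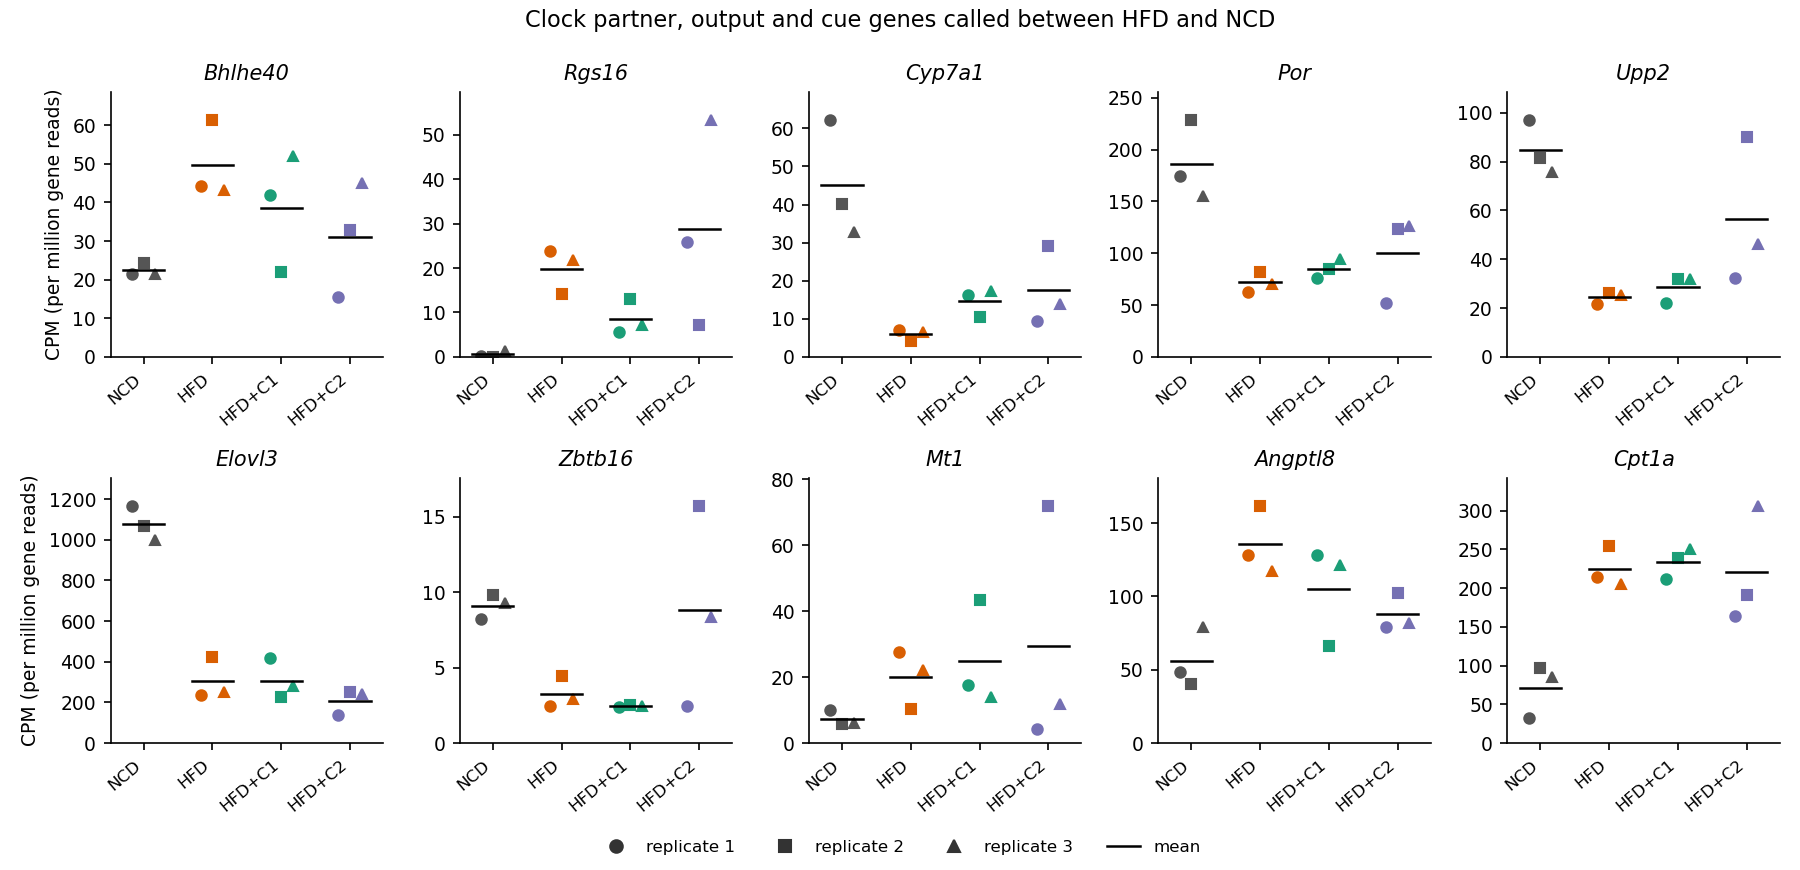
Level in CPM (linear axes from 0) of the 10 further clock, output and cue genes that were called between HFD and NCD, in each of the 12 libraries, with the bar giving the mean of 3. Rgs16 is at or below 1.38 CPM in NCD and Elovl3 at or above 1001 CPM there.

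Genes that respond to glucocorticoids, heat and feeding, cues that set the liver clock, were counted in the same way, against 6.03% of all genes called. Of 6 glucocorticoid-responsive genes, 2 were called on the high-fat diet: Zbtb16, a zinc finger factor, was lower by a log2 difference of -1.27 (SE 0.28; edgeR, Benjamini-Hochberg adjusted p = 0.0413), and Mt1, a metallothionein, was higher by 1.70 (SE 0.38; adjusted p = 0.0446). The Mt1 call was lost with total-read scaling (adjusted p = 0.0509), with a mean of at least 50 counts (adjusted p = 0.0506) and in the fit of 12 libraries (adjusted p = 0.15), and that of Zbtb16 in the fit of 12 libraries (adjusted p = 0.0682). Of 6 heat and cold genes tested, none was called, and 4 differed upward and 2 downward. An unadjusted edgeR p under 0.05 was reached by 2 of the 6, Cirbp among them at -0.88 (SE 0.22, adjusted p = 0.0526). Another of the 6, Dnajb1, was called in DESeq2, without a filter and in the fit of 12 libraries. Cirbp, a cold-inducible RNA-binding protein, was called in DESeq2 (adjusted p = 0.00857), with total-read scaling (adjusted p = 0.0352), in the fit of 12 libraries (adjusted p = 0.0108), and without NCD replicate 1 (adjusted p = 0.0239) or NCD replicate 2 (adjusted p = 0.0422). Of 8 feeding and fasting genes, 2 were called, both higher: Angptl8, a secreted protein induced by feeding, by 1.46 (SE 0.29; adjusted p = 0.0343), and Cpt1a, the gate enzyme of fatty acid oxidation induced by fasting, by 1.84 (SE 0.39; adjusted p = 0.0399). Each of these 4 calls was lost without at least 3 of the 6 libraries, one at a time. Without NCD replicate 1 the counts were 3 of 6, 1 of 6 and 4 of 8, where 13.7% of all genes were called. They were 1 of 6, 1 of 6 and 5 of 8 without NCD replicate 2, where 8.89% were. They were 0 of 6, 0 of 6 and 1 of 8 without NCD replicate 3, where 3.55% were. In DESeq2, with 16.6% of all genes called, they were 3 of 6, 2 of 6 and 5 of 8. In the fit of 12 libraries, with 17.4% called, they were 1 of 6, 2 of 6 and 5 of 8. Without a filter, with 12.7% called, they were 3 of 6, 2 of 7 and 7 of 8. Leaving out any 1 HFD library gave at most 1 called gene over these 3 lists, where 0.165% to 0.94% of all genes were called. With C1, with C2 and between them, none of the genes of these cue lists was called in the fit with all libraries and the filter on low counts. Zbtb16 differed by 1.47 between HFD+C2 and HFD (SE 0.52; adjusted p = 0.695) and by 1.91 between HFD+C2 and HFD+C1 (SE 0.53; adjusted p = 0.841). It was called in both without a filter and without HFD+C2 replicate 1 (1.89, adjusted p = 0.0219, and 2.33, adjusted p = 0.0454). Without HFD+C2 replicate 2 these differences were 0.72 (adjusted p = 0.67) and 1.16 (adjusted p = 0.743). By diet, 5 of 6 glucocorticoid, 2 of 6 heat and cold and 6 of 8 feeding and fasting genes had an unadjusted edgeR p under 0.05. Over all genes the share was 28.9%. On the TMM scale, 5 of 6, 3 of 6 and 5 of 8 did not overlap between HFD and NCD, against 37.1% of all genes. The median diet difference was -0.59 over the glucocorticoid genes, 0.53 over the heat and cold genes tested and 0.72 over the feeding and fasting genes. The part of these cues in the clock values was not tested.

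The genes whose pattern over the 12 libraries was most like that of Dbp, among 10132 genes whose mean count reached 50, were Myo19 (Pearson's r = 0.958), Kiz (0.955), Dsg1c (0.947), R3hcc1 (0.944) and Gm38561 (0.933). Those most like Arntl were Maco1 (0.952), Tdg (0.948), Gask1a (0.947), Kbtbd2 (0.946) and Zfp740 (0.944). No other clock member was among them, and Per1, Per3 and Ciart had too few counts to be ranked. These are descriptions over libraries that share group and depth. Dbp was under the floor of 3 reads in each NCD library, where its values depend on the 0.1 CPM added before the logarithm. Myo19 was at 0.934 to 1.25 CPM in NCD and 2.22 to 3.38 CPM in HFD, and Maco1 at 39.0 to 59.1 CPM in NCD and 31.0 to 36.2 CPM in HFD.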

How the data were processed

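Mouse liver RNA was sequenced in 12 libraries (4 groups of 3). The authors deposited 3 tables of read counts per gene, one per comparison, listing 50559 genes; the 3 HFD columns are the same in all (0 cells differ). The file names call the tables normalized, but the deposited values are whole numbers with different totals, so they were treated as raw counts. Per the submitters' processing notes, Trimmomatic 0.39, STAR 2.7 and DESeq2 were used with build mm10. The annotation, strand setting and filters are not given in the sources used here. The 4 rows that name no gene held 27.3% to 58.2% of the reads and entered neither library sizes nor tests.

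Members and lists were chosen with earlier results of these data known. Counts were tested with edgeR 4.0.16 (R 4.3.3): TMM, genes whose mean count over the compared 6 libraries was 10 or more, quasi-likelihood test, Benjamini-Hochberg adjustment over all genes, call at an adjusted p under 0.05. Intervals are at 95%. The fit was tested on simulated counts. Alternatives were DESeq2 1.42.0, RLE and total-read scaling, no filter, a mean of at least 50 counts, a fit of 12 libraries, a replicate block and leaving out each library. Correlations used log2(CPM + 0.1) and permutation tests, exact within 9 or fewer libraries and otherwise with 100000 resamples. Named genes were all members, list genes that were called plus up to 4 others per list, and the 5 genes nearest in pattern to Dbp and Arntl. Positions and exon lengths come from GENCODE's GRCm38 annotation and promoters from RefSeq GRCm38.p6. The labels name biological replicates without naming animals, so p-values measure the spread between these libraries. Reads are not independent molecules.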

Additional observations from a re-analysis of the deposited data

How the results depend on the processing

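Of the clock members, 1 was called between HFD and NCD, where 6.03% of all genes were called. The count was 2 in DESeq2 (16.6% of all genes), 3 without a filter (12.7%) and 3 in the fit of 12 libraries (17.4%). It was 0 with a mean of at least 50 counts (5.21%), which removed Dbp. With 1 library left out it was 0 to 3, where 0.165% to 13.7% of all genes were called. Dbp was called in the 6 other settings with all libraries that tested it, from 4.82 to 5.19. Nr1d1 was called in 3 of 7 and Per3 in 2 of 6. In HFD+C2 against HFD the count of 0 became 1 in DESeq2 (0.259% of all genes) and 3 without a filter (Npas2, Per2 and Dbp, 0.531%). With 1 library left out it was 0 to 1, where 0% to 0.199% of all genes were called. Over all genes, 836 were called by diet, and the other counts were 2298 (DESeq2), 4493 (no filter, of 35374 tested), 524 (mean of at least 50), 2418 (12 libraries) and 23 to 1838 (1 library left out, lowest without HFD replicate 1). For C1 the count of 7 became 77, 206, 0 with 12 libraries and 2 to 102 with 1 left out; for C2 the count of 3 became 35, 152, 0 and 0 to 27; for C2 against C1 the count of 0 became 3 in DESeq2, 162 without a filter and 0 to 1. The cause was not tested. Pooled over 12 libraries, r was -0.793 for Dbp with Arntl and -0.564 for Nr1d1 with Arntl. As deviations from the group means they were -0.255 and 0.257, within the 9 libraries on the high-fat diet -0.354 and 0.002, and for Dbp without the 2 farthest of these 9 -0.741. For Nr1d1, r was -0.684 without the 2 farthest of 12, -0.901 without NCD replicate 1 and HFD+C2 replicate 1, and -0.733 to -0.446 with 1 library left out; for Dbp it was -0.920 to -0.684. Among the fits with all libraries and no block, these directions turned: with total-read scaling Clock became -0.028 by diet and -0.016 between compounds, and Nr1d2 became -0.050 by diet; without a filter Npas2 became 0.135 by diet.

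Replicate numbers are shared by the groups. Deviations of same-numbered libraries from their group means had correlations of -0.208 to 0.267. With 3 libraries per group these cannot decide whether a number marks shared handling, which was not tested. With a replicate block, 483 genes were called by diet and 36 for C1, Dbp kept its call (5.17, adjusted p = 0.0197), Cyp7a1 gained one for C1 (1.284, adjusted p = 0.00254), Npas2 became 0.025 by diet and Per1 became -0.195 between compounds. With 1 library left out, ranges that crossed 0 were, by diet, -0.066 to 0.404 for Clock, -0.320 to 0.415 for Npas2, -0.006 to 0.487 for Nr1d2 and -0.532 to 0.085 for Tef. For C1 against HFD they were -0.208 to 0.193 for Arntl, -0.161 to 0.137 for Clock, -0.342 to 0.110 for Cry1, -0.416 to 0.558 for Dbp, -0.286 to 0.437 for Nr1d1 and -0.224 to 0.453 for Per3. For C2 against HFD they were -0.094 to 0.199 for Clock, -1.357 to 0.156 for Per1 and -0.135 to 0.987 for Rgs16, and for C2 against C1 -0.049 to 0.174 for Clock and -0.920 to 0.591 for Per1.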
